A study of Homo sapiens with 84 samples.

Results

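The highest doses of 2 PARP7 inhibitors were compared after 24 h in NCI-H1373, an established line of non-small cell lung cancer. The 3 libraries of cells given RBN-2397 at 300 nM were set against the 3 libraries of cells given RBN012337 at 100 nM, which is 6 of the 84 libraries of the series. The 6 were chosen by line, compound, dose and time alone, and no measured value entered the choice. The whole study exposed NCI-H1373 and a second lung cancer line, NCI-H647, to 3 doses of each compound, with DMSO as the vehicle control, at 6 and 24 h. The sample titles spell RBN-2397 as RBN012397. The doses listed under both spellings are identical, and they were taken as 1 compound. Per the design text each top dose lay near the concentration that gives 90% inhibition. Because the doses differ, a difference between the groups belongs to the pair of compound and dose, and those cannot be told apart. The vehicle group at 24 h, also 3 libraries, is given beside each value. All cells of these groups were plated the day before in wells of 6-well dishes and the labels name no genetic change in them.

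PARP7, the product of TIPARP, is an enzyme that attaches single ADP-ribose units to proteins. In tumour cells it is known to hold back the signalling that runs from cytosolic nucleic acid sensors to type I interferon, which acts through its receptor to switch on interferon-stimulated genes. TIPARP is itself a target of the aryl hydrocarbon receptor, a ligand-activated transcription factor, and PARP7 is known to dampen that receptor's output. The comparison asks whether 2 inhibitors of the same enzyme, each near its concentration of 90% inhibition, give the same transcriptional state in the same cells.

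The RBN-2397 libraries held 4886484, 1372981 and 1306705 counts in replicates 1, 2 and 3, the RBN012337 libraries 2868221, 1455252 and 1622459, and the DMSO libraries 3610536, 1622874 and 630654. Levels below are CPM, the count scaled to the total of its library, always in the order of replicates 1, 2 and 3. The 10 markers of lung epithelial cancer cells were all detected. Their summed level ran from 6210 to 8890 CPM with RBN-2397, from 3160 to 6260 with RBN012337 and from 2560 to 2970 with DMSO. The 12 leukocyte markers summed to at most 22.6 CPM in any of these libraries, and CD3E, MS4A1 and ITGAM were at 0 in all of them. The 8 fibroblast and 6 endothelial markers summed to at most 16 and 8.42 CPM.

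The 3 RBN012337 libraries did not resemble each other closely. Over 8593 well-detected genes, log2 levels of replicate 1 correlated best with DMSO replicate 1 (Pearson r = 0.961, against 0.904 with RBN-2397 replicate 1). Replicate 2 correlated best with DMSO replicate 2 (r = 0.936, against 0.853 with RBN-2397 replicate 2). Replicate 3 stood with the RBN-2397 libraries instead. Its r was 0.955 with RBN-2397 30 nM replicate 3 and 0.951 with RBN-2397 300 nM replicate 3, against 0.861 with DMSO replicate 3. DMSO replicate 3, the shallowest library, reached at most 0.888 with any NCI-H1373 library at 24 h. The value of 0.861 is therefore not comparable with the 0.961 and 0.936 of the other DMSO libraries. These correlations run across genes within pairs of libraries, and genes are not independent replicates. The labels assign all 3 to RBN012337 at 100 nM, and all 3 were kept. Whether libraries were exchanged, or the treatment took unequally between wells, was not tested and cannot be settled from the labels, so every difference between the compounds below is one between libraries as labelled. IFIT2 and TIPARP, described below, were above same-numbered DMSO in each of the 3. The counts of genes rest strongly on RBN012337 replicate 3, so the main results are also given without it. That library was singled out after its values were seen. It stood nearest RBN-2397, so leaving it out tends to widen the differences, and the values without it are no independent support.

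With all libraries, 21 of 11088 tested genes passed the threshold between the top doses, 8 higher and 13 lower with RBN-2397 (0.189% called, 0.0722% higher and 0.117% lower; edgeR quasi-likelihood test with the replicate number as a block, adjusted p under 0.05). At an unadjusted p under 0.05 the count was 2326 (21%), with 1127 higher (10.2%) and 1199 lower (10.8%). DESeq2 called 488 of the 9798 genes to which it gave an adjusted p, 285 higher and 203 lower. Without RBN012337 replicate 3, 1689 of 11425 genes passed, 963 higher and 726 lower (14.8%, 8.43% and 6.35%). The counts by list given below are to be read beside these shares over all genes. Without replicate 1 or replicate 2 of either compound, 1 gene passed in each case, 0 of them among the 21. The calls also rest on the block: without it 0 genes passed, and the 21 had adjusted p-values of 0.171 to 0.187. Against DMSO, 1923 genes were called with RBN-2397 (971 higher and 952 lower; 17.3% called, 8.76% higher and 8.59% lower) and 21 with RBN012337 (all higher, 0.189%). The 2 comparisons with DMSO share the DMSO libraries. The 95% interval of a difference had a median half-width of 0.61 on the log2 scale, so many genes that missed the threshold could still differ by a moderate amount.

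**Figure D1:**
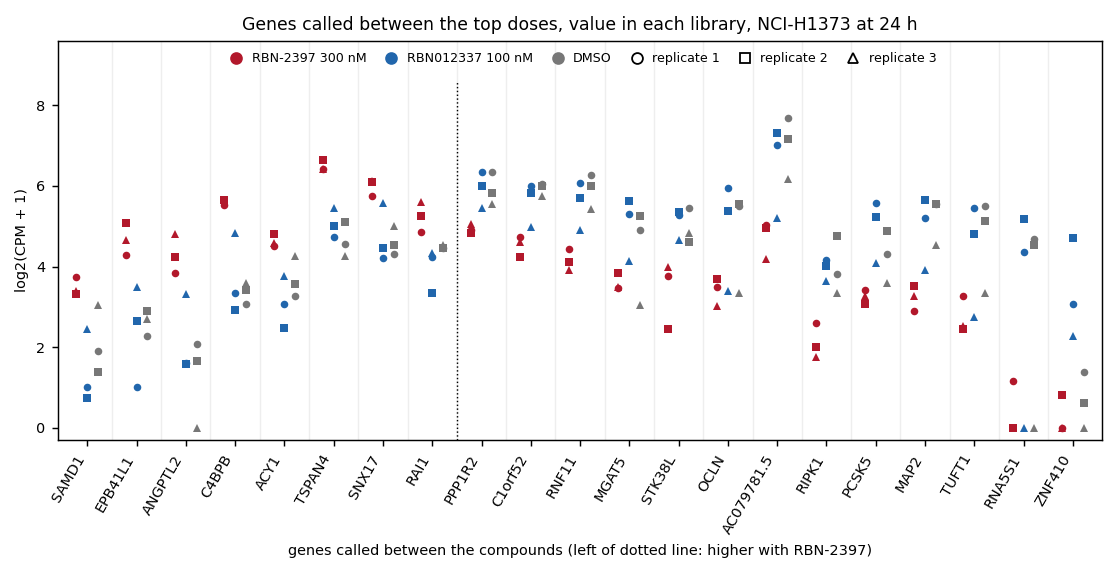
Levels of the 21 genes called between the top doses, as log2(CPM + 1) on the y axis, with 1 point for each library of RBN-2397 300 nM, RBN012337 100 nM and DMSO and a marker shape for each replicate number. Genes higher with RBN-2397 stand left of the dotted line, and in all 21 genes RBN012337 replicate 3 is the RBN012337 library nearest the RBN-2397 mean.

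Among the 8 genes higher with RBN-2397, EPB41L1 (ENSG00000088367.21, chromosome 20, 36091504 to 36232799 on GRCh38), which links membrane proteins to the actin and spectrin skeleton, read 18.4, 32.9 and 24.4 CPM with RBN-2397. It read 1.02, 5.26 and 10.2 CPM with RBN012337 and 3.81, 6.5 and 5.5 with DMSO. Every RBN-2397 library lay above every RBN012337 and DMSO library, and the difference between the compounds was 2.39 ± 0.41 (log2, SE, n = 3 per group, edgeR adjusted p = 0.0269), or 5.22-fold. Without RBN012337 replicate 3 it was 3.12. TSPAN4 (ENSG00000214063.10, chromosome 11, 842808 to 867116), a tetraspanin membrane protein, read 84.4, 99.4 and 84.3 CPM with RBN-2397, 25.4, 30.9 and 42.6 with RBN012337, and 22.6, 33.6 and 18.3 with DMSO. The RBN-2397 libraries were again the 3 highest, by 1.44 ± 0.25 (adjusted p = 0.0269), and by 1.82 without RBN012337 replicate 3. SNX17 (ENSG00000115234.10, chromosome 2, 27370496 to 27377533), a sorting nexin that returns receptors from endosomes to the surface, read 53.2, 67.2 and 68.6 CPM against 17.6, 21 and 46.4, a difference of 1.21 (adjusted p = 0.0342) that was 1.66 without that library. The RBN012337 library nearest to the RBN-2397 range was replicate 3 in each of these genes.

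C4BPB, the beta chain of the complement regulator C4b-binding protein, was higher with RBN-2397 by 1.87 ± 0.39 (edgeR adjusted p = 0.0468). Its levels were 45.1, 49.3 and 49.6 CPM with RBN-2397, 9.16, 6.57 and 27.3 with RBN012337, and 7.34, 9.75 and 11 with DMSO. The secreted angiopoietin-like protein gene ANGPTL2 was higher by 2.23 ± 0.47, at 13.4, 17.9 and 26.8 CPM against 2.04, 1.97 and 8.9. ACY1, which hydrolyses N-acylated amino acids, was higher by 1.56 ± 0.32, at 21.7, 26.9 and 22.9 CPM against 7.46, 4.6 and 12.7. In none of these 3 genes did the 2 groups overlap. SAMD1, a chromatin protein that binds unmethylated CpG islands, was higher by 2.48 ± 0.52, at 12.3, 8.96 and 9.46 CPM against 1.02, 0.657 and 4.45. RAI1, a chromatin regulator, was higher by 1.2 ± 0.25, at 28.0, 37.4 and 47.3 CPM against 18.0, 9.2 and 19.1. RAI1 missed the threshold once transcript GC content was corrected for (adjusted p = 0.0749).

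Among the 13 genes lower with RBN-2397, RIPK1 (ENSG00000137275.13, chromosome 6, 3063991 to 3115187), the kinase that relays signals of the tumour necrosis factor receptor to NF-kB and to cell death, read 5.01, 2.99 and 2.36 CPM with RBN-2397. It read 17.0, 15.1 and 11.4 CPM with RBN012337 and 13.0, 26.0 and 9.17 with DMSO. The RBN-2397 libraries were the 3 lowest, with a difference of -1.92 ± 0.36 (log2, SE, n = 3 per group, edgeR adjusted p = 0.0269), and the RBN012337 and DMSO ranges overlapped. Without RBN012337 replicate 3 the difference was -1.87. MAP2 (ENSG00000078018.19, chromosome 2, 209424058 to 209734118), a microtubule-binding protein, read 6.47, 10.5 and 8.67 CPM with RBN-2397, 36.0, 49.3 and 14.0 with RBN012337, and 45.7, 46.1 and 22.0 with DMSO. The groups did not overlap and differed by -1.97 ± 0.36 (adjusted p = 0.0269). PCSK5, a protease that cleaves precursor proteins in the secretory pathway, read 9.6, 7.47 and 8.67 CPM with RBN-2397, 47.1, 36.8 and 15.9 with RBN012337, and 19.0, 28.7 and 11 with DMSO. Its difference was -1.92 ± 0.36. It was called lower than DMSO with RBN-2397 (-1.19), and with RBN012337 it stood at 0.73 against DMSO without passing the threshold.

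MGAT5, which branches N-linked glycans, differed by -1.61 ± 0.30 and RNF11, a RING finger protein of ubiquitin signalling, by -1.49 ± 0.29 (edgeR adjusted p = 0.0269 and 0.0272). RNF11 read 20.5, 16.4 and 14.2 CPM with RBN-2397, 66.8, 50.6 and 29.2 with RBN012337, and 76.4, 62.9 and 42.2 with DMSO. PPP1R2, an inhibitor of protein phosphatase 1, differed by -1.08 and STK38L, a kinase of the Hippo family, by -1.68. C1orf52, whose role is not well described, differed by -1.11. OCLN, the tight junction protein occludin, differed by -1.89 ± 0.39 (adjusted p = 0.041), but its groups touched. It read 10.2, 12 and 7.09 CPM with RBN-2397 and 61.1, 40.8 and 9.54 with RBN012337, so RBN012337 replicate 3 lay inside the RBN-2397 range. TUFT1, which encodes the acidic protein tuftelin, overlapped in the same way at a difference of -1.98. ZNF410, a zinc finger transcription factor, rested on few counts, with 1 count in all RBN-2397 libraries and 66 in the RBN012337 libraries. The ratio of summed counts per total was 84.0 with a 95% interval from 14.6 to 3370 that covers counting error only, and ZNF410 was not called against DMSO with either compound. With RBN012337 replicate 3 left out it was called against DMSO with RBN012337 (3.64, edgeR adjusted p = 0.0433). The other 2 called genes are the clone-named locus AC079781.5 and RNA5S1, a gene of a ribosomal RNA with many near-identical copies, whose counts are uncertain because the copies can share reads.

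Of the 21 genes, 18 showed no overlap of the 3 with the 3 libraries, as did 15.8% of all tested genes. Against DMSO with RBN-2397, 20 of the 21 were called, in the direction of the difference between compounds. Against DMSO with RBN012337, none of the 21 was called with all libraries (ZNF410 alone without replicate 3), and the median absolute change was 0.33 against 1.82 with RBN-2397. The 21 were picked by the difference between the compounds, and both comparisons with DMSO reuse the same treated libraries. The shared direction and the unequal medians are therefore partly built in by that choice. In all 21 genes, RBN012337 replicate 3 was the RBN012337 library closest to the RBN-2397 mean, as it was in 6290 (56.7%) of all tested genes. All 21 were called in the same direction without RBN012337 replicate 3, at absolute log2 differences of 1.27 to 6.32 (highest edgeR adjusted p = 0.00331). Because that library lay closest to RBN-2397 in these genes, leaving it out tends to widen their differences, and this is no independent check. With RBN012337 replicate 1 or 2 left out instead, 0 of the 21 were called. Just outside the threshold stood GADD45A, a growth arrest gene, at -1.68 (edgeR adjusted p = 0.05).

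Interferon-stimulated genes formed the largest list, and promoter sequence shows what several of them share. The interferon-stimulated response element is bound by transcription factors of the IRF family. Its letters, GAAA and GAAA again with any 2 bases between, were searched on both strands in the 250 bases before each RefSeq gene start (GRCh38.p14). They were found in 26 of 41 listed interferon-stimulated genes with an entry (63.4%) and in 1014 of 27305 genes overall (3.71%). Stretches of 120 bases are printed for RSAD2, ISG15 and IFIT1, whose levels are given below. They run 5′ to 3′ on the plus strand, lie outside every GENCODE 29 exon, and carry the interferon element in capitals.
RSAD2, chr2:6877545-6877664: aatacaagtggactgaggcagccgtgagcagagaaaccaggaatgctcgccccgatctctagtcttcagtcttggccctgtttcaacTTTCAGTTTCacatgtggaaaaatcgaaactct
ISG15, chr1:1013303-1013422: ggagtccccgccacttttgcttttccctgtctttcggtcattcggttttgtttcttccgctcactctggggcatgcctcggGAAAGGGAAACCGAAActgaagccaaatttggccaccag
IFIT1, chr10:89392426-89392545: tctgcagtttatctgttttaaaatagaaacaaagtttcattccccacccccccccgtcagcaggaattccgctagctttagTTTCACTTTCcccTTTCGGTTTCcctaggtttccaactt
The RSAD2 stretch holds 1 match, and those of ISG15 and IFIT1 hold 2 each, which overlap in ISG15. A match is a description of the letters and was not tested as a binding site.

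Among 53 tested interferon-stimulated genes, 0 were called between the top doses by the edgeR test, and 2 had an unadjusted p under 0.05, both higher with RBN-2397. DESeq2 called 1, also higher. The median difference was 0.49 on the log2 scale, against -0.03 over all tested genes, and 49 of the 53 were above 0. Against DMSO, 31 of the 53 were called higher with RBN-2397 and 2 with RBN012337, at medians of 1.73 and 1.22. Without RBN012337 replicate 3, the RBN012337 median against DMSO was 0.56, with 1 of 55 called. The spread lay within the RBN012337 group. The summed level of the list was 8390, 12900 and 16000 CPM with RBN-2397, 5280, 3140 and 17500 with RBN012337, and 2770, 2190 and 2480 with DMSO. RBN012337 replicate 3 was therefore the highest of these 9 libraries, while its replicates 1 and 2 lay between DMSO and RBN-2397. At lower doses of RBN012337 the list summed to 6950, 8910 and 5900 CPM (3 nM) and to 10100, 10700 and 6270 CPM (10 nM). Top-dose replicates 1 and 2 lay below all of these libraries and top-dose replicate 3 above them. The small RBN012337 change is therefore not read as a property of its top dose, and the cause was not tested. By pair, the median difference was 0.48, 1.66 and -0.12 in replicates 1, 2 and 3. Once RBN012337 replicate 3 was left out, 20 of 55 were called higher with RBN-2397 and 0 lower, and the median was 1.32. With replicate 1 or replicate 2 of RBN012337 left out instead, 0 of 56 were called and the median was 0.31 or 0.20.

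IFIT1, which binds viral RNA that lacks cap methylation, read 506, 967 and 1020 CPM with RBN-2397, 254, 109 and 1140 with RBN012337, and 12.2, 13.5 and 33.0 with DMSO. The compounds overlapped and differed by 0.93 ± 0.72, with a 95% interval from -0.64 to 2.49 (edgeR adjusted p = 0.492). In the fit without RBN012337 replicate 3 the difference was 2.27 and passed the threshold (adjusted p = 0.0386). ISG15, a ubiquitin-like modifier, read 1470, 1910 and 2990 CPM with RBN-2397, 891, 371 and 3690 with RBN012337, and 279, 164 and 253 with DMSO. Its difference was 0.60 ± 0.61, and 1.88 without RBN012337 replicate 3 (adjusted p = 0.0175). OASL, a relative of the RNA-sensing oligoadenylate synthetases, read 278, 360 and 452 CPM against 133, 41.4 and 491 with RBN012337. Its difference was 1.0 ± 0.66, and 2.20 without that library (adjusted p = 0.026). MX1, a GTPase that blocks viral nucleocapsids, read 114, 240 and 275 CPM against 46.8, 21.7 and 355, at 0.72 ± 0.98, and at 2.77 without that library, which did not pass (adjusted p = 0.0707). In each of these genes replicates 1 and 2 of RBN012337 lay below the RBN-2397 range and replicate 3 above it.

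IFIT2 and RSAD2 did not follow this order. IFIT2, a relative of IFIT1, read 270, 348 and 489 CPM with RBN-2397, 446, 210 and 569 with RBN012337, and 32.1, 12.5 and 25.7 with DMSO. Both compounds raised it past the threshold against DMSO, by 3.95 and 4.06, and the groups overlapped widely. The difference between compounds was -0.11 with a 95% interval from -0.92 to 0.71 (edgeR adjusted p = 0.907), and 0.17 without RBN012337 replicate 3. RSAD2, which encodes viperin, an enzyme that makes a chain-terminating nucleotide, read 15.2, 22.4 and 37.8 CPM with RBN-2397, 21.7, 10.5 and 35.0 with RBN012337, and 4.08, 5.42 and 1.83 with DMSO. It was called higher than DMSO with both compounds, by 2.44 and 2.31. The difference between them was 0.12 with an interval from -0.66 to 0.91. With RBN012337 replicate 3 left out the RBN012337 change of RSAD2 missed the threshold (adjusted p = 0.137), and that of IFIT2 passed it (adjusted p = 0.00485).

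**Figure D2:**
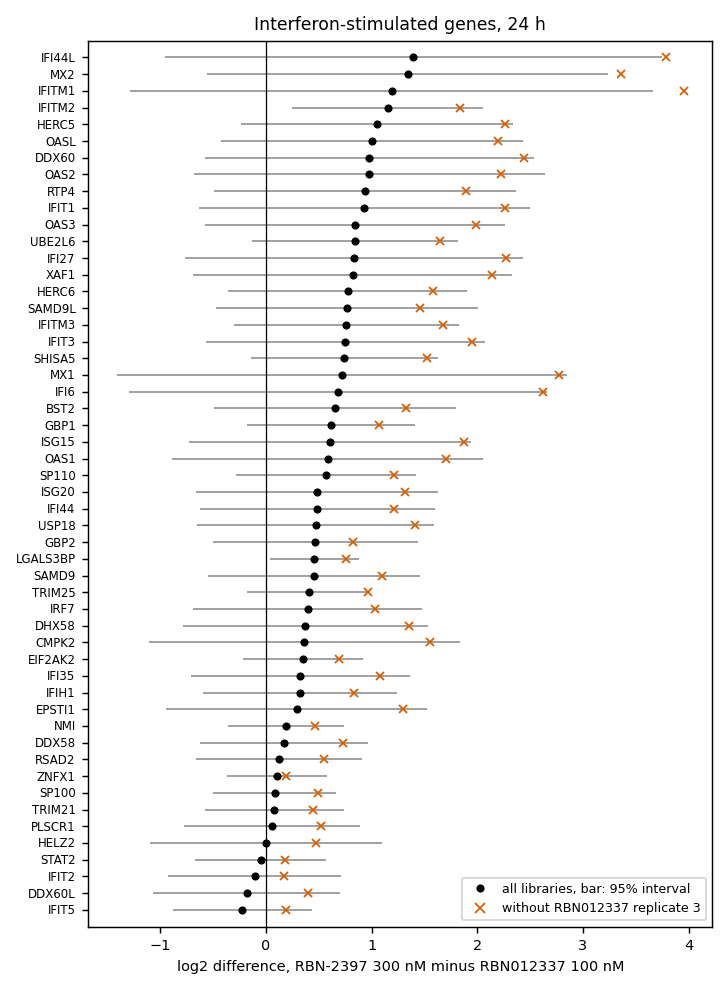
Difference between the top doses (RBN-2397 300 nM minus RBN012337 100 nM, log2, x axis) for 52 of the tested interferon-stimulated genes, with its 95% interval. Crosses give the value without RBN012337 replicate 3. The intervals of 50 of these genes cover 0, and all 52 crosses lie right of their points. RBN012337 replicate 3 had the highest summed level of the list, so a shift in this direction comes with leaving it out.

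CCL5, a chemokine that draws T cells, had a difference below 0. It read 14.8, 21.7 and 31.5 CPM with RBN-2397, 124, 40.8 and 36.2 with RBN012337, and 2.17, 2.71 and 0 with DMSO. The groups did not overlap, and both compounds raised it against DMSO, by 3.47 and 5.04 (edgeR adjusted p = 0.00464 and 0.00118). The difference between compounds was -1.57 with an interval from -2.54 to -0.59 and missed the threshold (adjusted p = 0.0793). Once RBN012337 replicate 3 was left out it was -1.82 and passed (adjusted p = 0.0229). CXCL10, another T-cell chemokine, was too low to test, with 1 count in the 6 treated libraries.

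All 21 genes called against DMSO with RBN012337 were higher, and they were looked at one by one after their values were seen. None of the 21 was called between the compounds by the edgeR test, and DESeq2 called 1 higher and 1 lower. Of the 21, 8 had an unadjusted p under 0.05, against 21% of all tested genes. The 21 were picked by their rise in the same RBN012337 libraries, so the differences are partly pushed below 0 by that choice. When RBN012337 replicate 3 was left out, 5 of them were called: TM4SF1 and MLPH higher with RBN-2397, and CCL5, CYP1B1 and PMAIP1 lower. The differences with all libraries ran from -1.57 to 0.97, and 9 were above 0. Of the 95% intervals, 14 lay wholly within 1 log2 unit of 0, as did those of 5679 of all 11088 tested genes. ADGRF1, an adhesion G protein-coupled receptor, read 489, 518 and 530 CPM with RBN-2397, 648, 403 and 574 with RBN012337, and 116, 66.1 and 227 with DMSO. The compounds overlapped at a difference of -0.08 (interval -0.63 to 0.48) and at -0.10 without RBN012337 replicate 3. SPRY1, a feedback inhibitor of ERK signalling, read 55.5, 51.5 and 41.8 CPM against 45.8, 34.8 and 46.4, with DMSO at 9.24, 5.96 and 22.0, at a difference of 0.22 (interval -0.33 to 0.77), and 0.44 without that library. ELF3, an epithelial transcription factor, differed by 0.04 (interval -0.46 to 0.54), and by 0.14 without it.

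TM4SF1, a membrane protein of many carcinomas, stood at the other end. It read 1900, 2210 and 1880 CPM with RBN-2397, 1030, 700 and 1370 with RBN012337, and 475, 287 and 380 with DMSO. The 3 groups did not overlap, and the difference was 0.97 with an interval from 0.41 to 1.53 (edgeR adjusted p = 0.0646). When RBN012337 replicate 3 was left out it was 1.36 and passed (adjusted p = 0.00164). GDF15, a stress-induced cytokine, read 6.68, 35.1 and 18.1 CPM against 39.0, 38.8 and 22.3, with DMSO at 2.17, 3.25 and 0, at a difference of -1.02 (adjusted p = 0.111), and -1.11 without that library (adjusted p = 0.0566). PMAIP1, which encodes the death-promoting protein NOXA, read 69.7, 71.7 and 102 CPM against 180, 90.7 and 107, with DMSO at 68.8, 37.4 and 77.0. It was called against DMSO with RBN012337 (1.09) and not with RBN-2397 (0.47), but the difference of -0.62 between the compounds did not pass (adjusted p = 0.104). When RBN012337 replicate 3 was left out it was -0.76 and passed (adjusted p = 0.0242). In the fit without RBN012337 replicate 3, 23 genes were called against DMSO with RBN012337, 21 higher and 2 lower (0.201% of 11425, with 0.184% and 0.0175%).

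**Figure D3:**
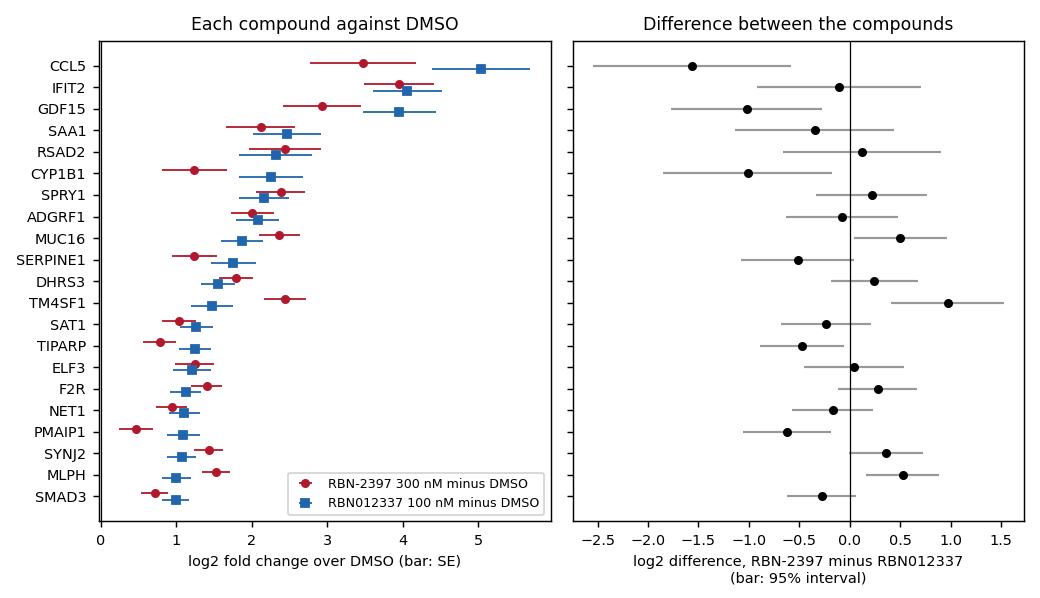
The 21 genes called against DMSO with RBN012337. The left panel gives the change from DMSO with each compound (log2, SE), and the right panel the difference between the compounds with its 95% interval, of which 13 cover 0. Over all tested genes, 8761 of 11088 such intervals cover 0.

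The aryl hydrocarbon receptor targets were split. Of 11 tested, 0 were called between the compounds by the edgeR test, 2 were higher and 5 lower with RBN-2397 at an unadjusted p under 0.05, the median difference was -0.37, and DESeq2 called 1, lower. TIPARP (ENSG00000163659.12, chromosome 3, 156673235 to 156706770), the gene of the inhibited enzyme, read 69.9, 46.3 and 77.2 CPM with RBN-2397, 97.3, 71.0 and 99.2 with RBN012337, and 42.7, 26.6 and 45.8 with DMSO. Within every replicate number RBN012337 was highest and DMSO lowest. Both compounds raised TIPARP against DMSO, by 0.78 (adjusted p = 0.0165) and 1.25 (adjusted p = 0.00574), and without RBN012337 replicate 3 the latter still passed (adjusted p = 0.0175). The difference between compounds was -0.47 with an interval from -0.89 to -0.06 and missed the threshold (adjusted p = 0.179), as did -0.41 without that library (adjusted p = 0.234). The compounds act on the enzyme, so TIPARP RNA does not check the labels as it would in a knockdown.

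CYP1B1, a cytochrome P450 induced by the receptor, read 40.9, 68.7 and 76.4 CPM with RBN-2397, 141, 128 and 83.3 with RBN012337, and 31.8, 23.8 and 7.33 with DMSO. The compounds did not overlap, with RBN012337 the higher, at a difference of -1.01 ± 0.39 (edgeR adjusted p = 0.155). With RBN012337 replicate 3 left out it was -1.28 and passed (adjusted p = 0.0435). AHRR, the repressor of the receptor, stood at 0.13 with an interval from -0.85 to 1.11, and CYP1A1 was too low to test, at 8, 0 and 3 counts with RBN-2397 and 15, 4 and 5 with RBN012337. ALDH3A1 and ALDH1A3, which oxidise aldehydes and make retinoic acid respectively, stood above 0. ALDH1A3 read 67.9, 88.2 and 72.5 CPM with RBN-2397 and 19.7, 10.5 and 90.3 with RBN012337, a difference of 1.07 that was 2.28 without RBN012337 replicate 3 (adjusted p = 0.301 and 0.00125). Without that library 4 receptor targets were called higher and 3 lower with RBN-2397. The core GCGTG, bound by the receptor and searched on both strands, stood before 6 of 8 receptor targets with an entry (75%) and 9889 of all genes (36.2%). It also stood before 17 of 31 DNA replication genes (54.8%), so these 5 letters are not particular to receptor targets.

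DNA replication genes were nearly all above 0 in the difference between compounds. Of 35 tested, 32 were above 0 and 14 were higher with RBN-2397 at an unadjusted p under 0.05, against 10.2% of all genes, but 0 were called by the edgeR test and 5 by DESeq2, all higher. The median difference was 0.65. The summed level of the list was 2030, 1700 and 1860 CPM with RBN-2397, 1110, 912 and 1970 with RBN012337, and 954, 905 and 2030 with DMSO, so replicate 3 was as high in DMSO as with either compound. By pair the median was 0.88, 0.75 and -0.08. MCM2, a subunit of the replicative helicase, read 60.1, 40.3 and 43.3 CPM with RBN-2397, 22.4, 11.2 and 36.9 with RBN012337, and 9.79, 11.9 and 16.5 with DMSO. Its groups did not overlap, at a difference of 1.07 ± 0.27 (adjusted p = 0.0538). CDT1, which loads that helicase, and TYMS, which makes thymidylate, differed by 1.2 (adjusted p = 0.0519) and 1.01, and by 1.73 and 1.65 without RBN012337 replicate 3 (adjusted p = 0.000467 and 0.000344). Once RBN012337 replicate 3 was left out, 13 of the 35 were called higher and 0 lower, MCM2 at 1.57 (adjusted p = 0.000471). Mitosis genes, at a median of -0.15 over 29, did not follow, with 1 higher and 3 lower at an unadjusted p under 0.05 and 3 called lower without that library. The edgeR test with all libraries and DESeq2 called 0 of them.

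Genes of lung lineage and mucins were mostly above 0 in the difference. Of 12 tested, 10 were above 0 and 7 were higher at an unadjusted p under 0.05, with a median of 0.93. The edgeR test called 0 and DESeq2 called 3, all higher. MUC1, a membrane mucin, read 25.9, 40.3 and 32.3 CPM with RBN-2397, 3.05, 2.63 and 23.5 with RBN012337, and 2.17, 3.79 and 7.33 with DMSO. Its difference was 1.94 ± 0.58 (adjusted p = 0.0831), and 3.42 without RBN012337 replicate 3 (adjusted p = 0.000344). NKX2-1, the lineage transcription factor of the distal lung, read 39.7, 48.6 and 22.9 CPM against 10.5, 7.23 and 23.5, a difference of 1.45 (adjusted p = 0.0519) that was 2.19 without that library (adjusted p = 0.000256). The secreted mucin MUC5AC differed by 2.02 (adjusted p = 0.0694), and by 3.08 without it (adjusted p = 0.0021). In the fit without RBN012337 replicate 3, 6 of 13 were called higher and 0 lower. SOX2, a stem cell and lineage factor, was too low to test, at 25, 6 and 4 counts with RBN-2397, 0, 0 and 5 with RBN012337, and 0 in every DMSO library.

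Keratins and junction genes split. Of 29 epithelial genes, 9 were higher and 7 lower with RBN-2397 at an unadjusted p under 0.05, and OCLN was the 1 called by the edgeR test, against 5 higher and 5 lower by DESeq2. KRT18, a keratin of simple epithelia, read 2410, 3560 and 2920 CPM with RBN-2397, 962, 831 and 2590 with RBN012337, and 660, 807 and 1050 with DMSO. Its difference was 1.11 ± 0.28 (adjusted p = 0.0592), and 1.71 without RBN012337 replicate 3 (adjusted p = 9.71e-05). KRT7 and KRT19, also simple keratins, stood at 1.06 and 1.0, while KRT17, a keratin of basal cells, stood at 0.01 with an interval from -1.77 to 1.79. When RBN012337 replicate 3 was left out these were 1.47, 1.40 and 2.0, of which KRT17 did not pass (adjusted p = 0.113). Without that library 8 of the 29 were called higher and 7 lower. The intermediate filament gene VIM, on a mesenchymal list of 7 tested genes (median 0.95, with 0 called by edgeR, 1 by DESeq2 and 3 at an unadjusted p under 0.05), read 315, 294 and 310 CPM with RBN-2397, 27.8, 22.3 and 237 with RBN012337, and 32.6, 21.7 and 93.5 with DMSO. VIM missed the threshold with all libraries (2.13, adjusted p = 0.115) and passed without RBN012337 replicate 3 (3.52, adjusted p = 0.00316).

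p53 targets and immediate early genes were mostly below 0 in the difference, toward RBN012337. Of 16 p53 targets, 3 were above 0, 1 was higher and 7 lower with RBN-2397 at an unadjusted p under 0.05, at a median of -0.69. The edgeR test called 0 and DESeq2 called 2, both lower. By pair the median was -0.97, -0.87 and -0.06. CDKN1A, the cyclin-dependent kinase inhibitor p21, read 13.8, 25.4 and 20.5 CPM with RBN-2397, 90.6, 90.1 and 22.9 with RBN012337, and 105, 143 and 7.33 with DMSO, a difference of -1.80 ± 0.65 (adjusted p = 0.14). When RBN012337 replicate 3 was left out it was -2.15 and passed (adjusted p = 0.0449). Its replicate 3 was low in all 3 groups. With RBN012337 replicate 3 left out, 6 of the 16 p53 targets were called lower and 0 higher. Of 19 ERK and immediate early genes, 2 were higher and 6 lower at an unadjusted p under 0.05, with 2 and 6 of 20 called without that library. With all libraries the edgeR test called 0 of the 19 and DESeq2 called 4, all lower. The immediate early transcription factor JUN stood at -1.58 and the ERK phosphatase gene DUSP5 at -2.49 (both adjusted p = 0.0514), and without RBN012337 replicate 3 both passed, at -1.89 and -2.72 (adjusted p = 0.00054 and 0.0023).

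ATF3, a stress-induced transcription factor, read 1.25, 1.49 and 3.94 CPM with RBN-2397, 37.0, 51.9 and 6.36 with RBN012337, and 49.5, 65.0 and 5.5 with DMSO. The compounds did not overlap, at a difference of -3.93 ± 0.82 (edgeR adjusted p = 0.0514), and -4.35 without RBN012337 replicate 3 (adjusted p = 0.00115). A similar shape appeared in CTGF, a secreted matrix protein and target of YAP. It read 1.67, 2.24 and 2.36 CPM with RBN-2397, 56.6, 42.7 and 1.27 with RBN012337, and 102, 98.1 and 9.17 with DMSO. Here the compounds overlapped, since RBN012337 replicate 3 lay below every RBN-2397 library. CTGF differed by -4.06 ± 1.12 (adjusted p = 0.0763), and by -4.44 without RBN012337 replicate 3 (adjusted p = 0.0111). In both genes replicates 1 and 2 of RBN012337 lay far above the RBN-2397 libraries and below same-numbered DMSO, and replicate 3 was low with DMSO too. Of 19 TGF-beta and YAP targets, 4 were higher and 7 lower at an unadjusted p under 0.05, at a median of -0.52, with 4 and 6 called without that library. Of 26 genes of amino acid and endoplasmic reticulum stress, 3 and 8 passed the unadjusted p, at a median of -0.19, with 4 and 7 of 27 called without it. With all libraries the edgeR test called 0 in either list, and DESeq2 called 2 higher and 5 lower of the former and 2 and 1 of the latter. ASNS, the asparagine synthetase gene of that response, did not pass the count filter and was not tested. It held 15, 1 and 0 counts with RBN-2397, 11, 3 and 0 with RBN012337, and 32, 275 and 0 with DMSO.

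Ribosomal protein and glycolysis genes were mostly above 0. With all libraries the edgeR test called 0 in either list and DESeq2 called 2 in each, all higher. Of 49 cytosolic ribosomal protein genes, 47 were above 0 and 19 were higher with RBN-2397 at an unadjusted p under 0.05, at a median of 0.34, and 13 were called higher without RBN012337 replicate 3. Of 23 glycolysis and hypoxia genes, 20 were above 0 and 6 passed the unadjusted p, all higher, at a median of 0.36, and 10 were called higher without that library. LDHA, which makes lactate, read 1480, 1490 and 1450 CPM with RBN-2397, 661, 586 and 1440 with RBN012337, and 520, 551 and 1220 with DMSO. With all libraries LDHA was among the genes that the edgeR test did not call. Its difference was 1.18 without RBN012337 replicate 3 (adjusted p = 0.00319), and leaving out that library tends to widen it. Again replicate 3 lay close to RBN-2397 in both other groups. Of 18 MHC class I genes 1 passed the unadjusted p (median 0.31) and 0 were called by edgeR or DESeq2, and 3 were called higher without RBN012337 replicate 3. B2M, the invariant chain of MHC class I, stood at -0.05 with an interval from -0.45 to 0.34, a narrow one, and at 0.01 without that library.

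The remaining lists held 0 genes called between the compounds by the edgeR test. At an unadjusted p under 0.05, 0 of 12 nucleic acid sensing genes passed (median 0.17), 0 of 5 immune checkpoint ligands (median 0.13) and 0 of 13 mitochondrially encoded transcripts (median 0.06). The 1 tested gene of squamous differentiation did not pass either (0.12). Of 14 genes of the PARP family 2 were higher and 2 lower (median 0.23), of 7 NF-kB targets and cytokines 1 and 2 (median -0.25), and of 5 interferons and chemokines 3 and 1 (median 1.02). Of 25 genes of sterol and fatty acid synthesis 7 were higher and 5 lower (median -0.07), of 17 NRF2 targets 6 and 4 (median -0.06), and of 12 cytosolic heat shock chaperones 2 and 1 (median -0.07). Of 18 apoptosis regulators 3 were higher and 2 lower (median 0.08), and of 11 aldehyde dehydrogenases 2 and 1 (median 0.30). Over all tested genes 10.2% were higher and 10.8% lower at that unadjusted p. The apoptosis regulators stood at 16.7% and 11.1% and the aldehyde dehydrogenases at 18.2% and 9.09%. Further above the all-gene shares were the NRF2 targets (35.3% higher and 23.5% lower) and the sterol list (28% and 20%). The interferons and chemokines stood at 60% and 20%. With such small counts and 0 calls by the edgeR test, none of these is read as a result about the lists. DESeq2 called 3 higher in each of the sterol and NRF2 lists, and at most 2 in either direction in each of the other lists of this paragraph. With RBN012337 replicate 3 left out, the edgeR test called a gene in 23 of all 26 lists, in 11 of them higher with RBN-2397 only, in 2 lower only and in 10 both. In that fit 14.8% of all tested genes were called (8.43% higher and 6.35% lower), so most lists would hold a call at that share. With RBN012337 replicate 1 or 2 left out instead, 1 gene among all tested passed in each case.

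**Figure D4:**
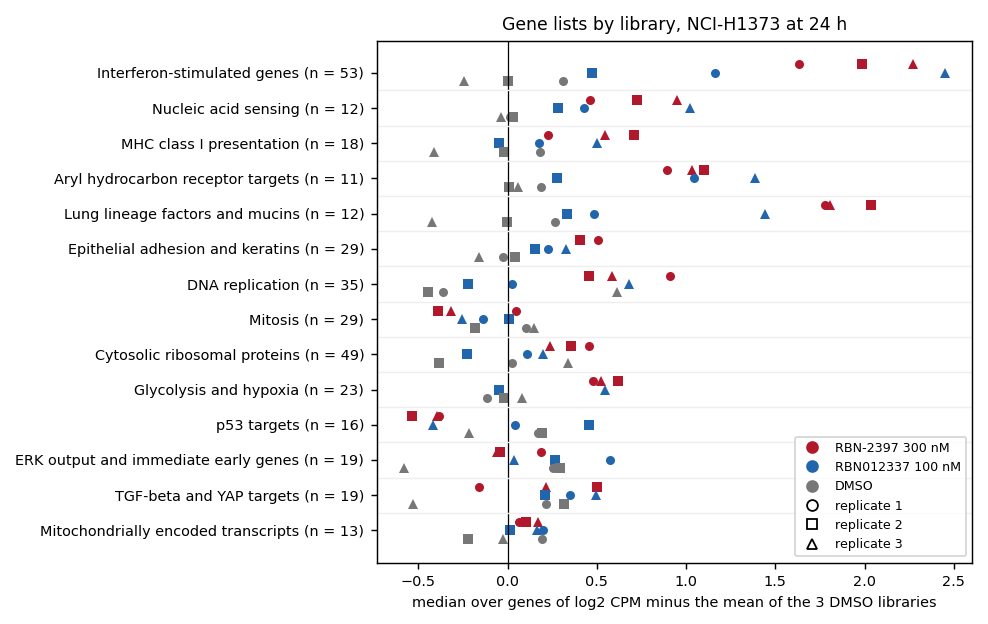
Median over the genes of each of 14 lists of the log2 CPM minus the DMSO mean (x axis), 1 point per library of RBN-2397 300 nM, RBN012337 100 nM and DMSO. For interferon-stimulated genes, RBN012337 replicate 3 lies beyond the RBN-2397 points, at a summed level of 17500 CPM, and replicates 1 and 2 lie between them and DMSO.

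Transcript GC content moved with the difference. The median difference was -0.18 in the quartile of genes with the lowest GC content and 0.21 in the quartile with the highest. Genes called higher with RBN-2397 had a median GC content of 58.2%, genes called lower 47.7% and all tested genes 48.9%. After each library was centred on a smooth curve of GC content, 76 genes were called, 25 higher and 51 lower, and 20 of the 21 genes above were among them. Its part in the difference was not tested further.

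The same contrast was made in libraries that share none of these 6. At 10 nM of each compound and 24 h, 0 of 11088 genes were called by the edgeR test, with 255 (2.3%) at an unadjusted p under 0.05 and 3 called by DESeq2. With the top doses after 6 h, 96 of 13598 genes were called, 46 higher and 50 lower (0.706% called, 0.338% higher and 0.368% lower). In NCI-H647 at 24 h, 0 of 14248 were called, with 1033 (7.25%) at an unadjusted p under 0.05 and 4 called by DESeq2. Of the 21 genes, 17 had the same sign at 10 nM, 20 after 6 h and 19 of the 19 tested in NCI-H647. Over all genes tested in both, 59%, 59.6% and 67.2% had the same sign. In NCI-H647, replicate pair 2 held the largest absolute difference in each of the 19 except TSPAN4, ACY1 and RNA5S1. MAP2 stood at 0.30, -1.24 and 0.21 there in pairs 1, 2 and 3, and TSPAN4 at 0.33, 0.17 and 0.46. The agreement in that line thus rests largely on 1 pair of libraries. The median absolute difference of the 21 genes was 0.26 at 10 nM, 0.52 after 6 h and 0.35 in NCI-H647. Among them RAI1 was called after 6 h, at 1.42 (edgeR adjusted p = 0.0434), and it lies in the same direction there. Whether the lines or the times differ in these genes was not tested.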

How the data were processed

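Per the labels' protocols, RNA was made into libraries for 3' digital gene expression, which read transcript ends. The authors deposited estimated counts of every gene in 1 table, without scaling or pooling. They came from Salmon and hg38, per the submitters' processing notes. For the annotation, the molecular identifiers and the strand, the handling is not given in the sources used here, so reads of near-identical or overlapping genes can be shared. Of the nonzero values 49.4% were not whole, and values were rounded. Columns were matched to samples by title, with 0 columns of other samples. Names and positions came from GENCODE 29 for 57845 of 57964 genes.

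The 21 NCI-H1373 libraries at 24 h were fitted in 1 model with 7 groups and the replicate number as a block (12 residual degrees of freedom), with filterByExpr, TMM scaling and the robust quasi-likelihood test of edgeR 4.0.16 (limma 3.58.1, R 4.3.3). P-values were adjusted by Benjamini-Hochberg over all genes of a comparison, with a threshold of 0.05. DESeq2 1.42.0, other filters, scalings and designs, and each library left out in turn were the alternatives, with a GC correction added after seeing the data. Labels speak of triplicate experiments and give no culture or day, so the p-values rest on differences among libraries that may be technical replicates. Same-numbered libraries of the 2 compounds deviated together, with correlations of 0.402, 0.11 and 0.179, which is the only ground for the pairing. The block was used in every comparison, though that ground was weaker in 2 of them. RBN-2397 and DMSO correlated at 0.322, 0.268 and 0.0606, and the compounds in NCI-H647 at 0.264, 0.0312 and 0.22. In the other comparisons the lowest correlation was 0.113 to 0.209. Replicates of a group differed by more than sampling noise (chi-square per degree of freedom 4.75 to 29.8). Intervals from counts cover counting error only. On simulated counts for 10848 genes, the test recovered 98 of 100 genes changed by 2 on the log2 scale and 61 of 100 changed by 1, with 4 unchanged genes called. These shares hold for the simulated counts only. In the real libraries ATF3, CTGF and VIM differed by more than 2 in size and missed the threshold, while EPB41L1 and SAMD1 passed. The shares therefore do not give the power of the test among RBN012337 libraries as unlike each other as these.

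Genes named are the called ones without overlap between groups and averaging 5 counts or more where higher, up to 12 in each direction by size of difference, up to 4 list members by smallest p and up to 4 by highest level, and fixed anchor genes. Names outside this rule (the overlapping called genes, those just past the threshold and those called against DMSO with RBN012337) were chosen after their values were seen. The libraries compared and the gene lists were chosen with earlier results of these data known. Some genes of the lists are not reported here by name.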

Additional observations from a re-analysis of the deposited data

How the results depend on the processing

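The count of 21 genes between the top doses was the least stable result. Without the replicate block it was 0, and all 21 genes lost the threshold, so the count depends on the block. With all 42 libraries of the line it was 17 without a block, 10 of them among the 21, and 650 with a block of replicate within time, 20 of them among the 21. The 6 libraries alone gave 5, 0 of them among the 21. It was 831 without a filter, 488 with DESeq2, 2716 with voom quality weights, 4 after thinning to equal totals, 112 with a mean count of at least 20 and 76 with the GC correction. Leaving out 1 library gave 1 to 1689. Without RBN-2397 replicate 1 or 2 or RBN012337 replicate 1 or 2 it was 1, without RBN-2397 replicate 3 it was 10, and without RBN012337 replicate 3 it was 1689. The cause was not tested.

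Without the replicate block, RBN-2397 against DMSO gave 1172 calls and RBN012337 against DMSO 13. Leaving out 1 library gave 406 to 2389 for RBN-2397 (1254 without its replicate 1, 580 without its replicate 2, 406 without DMSO replicate 1) and 15 to 44 for RBN012337 (43 without its replicate 2, 44 without DMSO replicate 3). RBN012337 gave 233 without a filter and 81 with DESeq2. The 10 nM difference gave 55 without a filter, 3 with DESeq2 and 0 to 2 with 1 library left out. The 6 h difference gave 0 without the block, 915 without a filter, 345 with DESeq2 and 1 to 687 with 1 library left out (1 and 2 without RBN012337 replicates 1 and 2, 5 and 3 without RBN-2397 replicates 1 and 2, 197 and 687 without replicate 3 of RBN-2397 and of RBN012337). The NCI-H647 difference gave 149 without a filter, 4 with DESeq2 and 0 to 5 with 1 library left out. Of the genes called against DMSO with RBN-2397, 1 changed sign without RBN-2397 replicate 1. Low genes rest on few counts in the shallower libraries, the lowest of them DMSO replicate 3 at 630654 counts.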
